A study of Mus musculus with 4 samples.

Results

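The ADP-ribosylation factor (ARF) genes of the mouse were examined in brain septal tissue, with Arf5 as the gene of interest and its paralogs as the comparison. The members were the 6 rows of the deposited files with the symbols Arf1, Arf2, Arf3, Arf4, Arf5 and Arf6, out of 15409 gene rows. Arf5 was chosen by its measured CPM, which was lower in TCRb-/- than in WT libraries in each of 2 experiments, and because it lies on the chromosome of the targeted locus. Its genotype difference is therefore a description here, and the genotype differences of the 6 genes are given with no test. All 6 genes were listed in every library, and all 6 passed the filter on low values, an average of 1 CPM or more over the 4 libraries (CPM is counts per 1000000 library reads), with the lowest of them at a mean of 76.6 CPM.

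There were 4 RNA sequencing libraries, 2 from WT mice and 2 from TCRb-/- mice, whose targeted gene encodes a chain of the receptor on alpha-beta T cells. All mice, WT included, were restrained in a plastic cone for 30 min on 3 days and killed 1.5 h after the last session, so no unstressed tissue enters any comparison. Each library was made from the pooled septal tissue of 4 to 5 mice, and the labels place 1 library of each genotype in experiment 1 (replicate 1) and 1 in experiment 2 (replicate 2). Neither age, sex nor strain background is stated in the sources used here. With 2 pools per genotype, an SD measures the spread between pools of different experiments. In such bulk tissue, fewer cells of a type and less RNA per cell cannot be told apart.

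ARF proteins are small GTPases that sit on membranes when bound to GTP and leave them when GTP is hydrolysed. Exchange factors with a Sec7 domain load them with GTP, and GTPase-activating proteins switch them off. On Golgi and endosomal membranes the active form recruits vesicle coats, COPI and clathrin adaptors among them, and stimulates enzymes that make phosphoinositides and phosphatidic acid. Class I holds Arf1, Arf2 and Arf3, class II holds Arf4 and Arf5, and Arf6, the only class III member, works at the plasma membrane and recycling endosomes. In neurons ARFs take part in dendrite growth, secretory traffic and the turnover of synaptic membrane proteins.

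Arf5 lies on the plus strand of chromosome 6 from 28423560 to 28426602 in GRCm38 (mm10, the build named in the submitters' processing notes), annotated in GENCODE M21 as a protein-coding gene. Its principal transcript has 6 exons, 1116 bases and a coding sequence of 540 bases. The other members are on other chromosomes: Arf1 (chromosome 11, 59211412 to 59228270) and Arf2 (chromosome 11, 103966739 to 103985337), Arf3 (chromosome 15, 98736634 to 98763214), Arf4 (chromosome 14, 26638074 to 26665084) and Arf6 (chromosome 12, 69372150 to 69373783). The first 60 coding bases of the 5 members of classes I and II, taken from GENCODE M21 on GRCm38, are shown because they tell how far reads of the paralogs can be separated. Capitals mark bases that differ from Arf5.
Arf5: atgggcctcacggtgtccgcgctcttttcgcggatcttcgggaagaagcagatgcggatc
Arf4: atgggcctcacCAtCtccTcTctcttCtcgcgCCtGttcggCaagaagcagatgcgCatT
Arf1: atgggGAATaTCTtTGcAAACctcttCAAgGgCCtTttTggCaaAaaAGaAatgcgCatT
Arf2: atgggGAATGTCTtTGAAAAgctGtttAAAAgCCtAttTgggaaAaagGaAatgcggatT
Arf3: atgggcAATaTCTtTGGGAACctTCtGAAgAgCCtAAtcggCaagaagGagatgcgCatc

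Arf4, the class II partner, differed from Arf5 at 12 of these 60 bases, and the class I genes at 26 to 28. Over the whole coding sequence Arf5 was 78.7% identical to Arf4, 72.6% to Arf1, 71.1% to Arf2, 74.8% to Arf3 and 66.3% to Arf6. The closest pair was Arf1 and Arf3 at 83.6%. Of the 1067 windows of 50 bases in the principal Arf5 transcript, 0 occurred in an annotated transcript of another gene. Windows were matched on both strands. Read length and the treatment of reads that map to several places are not stated in the sources used here. Arf1, with 12.2% of such windows shared with other annotated transcripts, is therefore less certain than Arf5, Arf2 (0%) and Arf3 (0.354%). The shared windows of Arf6 (7.68%) and Arf4 (2.88%) matched Gm9887 and Arf4os, which overlap them on the opposite strand. For Arf6 and Arf4 the uncertainty lies in the strand of the reads.

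Arf5 sits inside another gene. Gcc1, which encodes a Golgi-associated GRIP domain protein, spans 28416091 to 28428390 on the minus strand, so that the whole of Arf5 falls within it. No base of the principal Arf5 transcript overlaps an annotated Gcc1 exon, and 313 exonic bases of minor isoforms overlap. Whether reads were counted by strand is likewise not stated, so reads of these minor isoforms cannot be assigned between the genes.

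The window of 300 bases around the Arf5 start site, from RefSeq on GRCm38.p6 (chr6:28423354-28423653, plus strand), is shown because it is the stretch of DNA nearest to the start of the gene that differed between genotypes. It is the reference sequence and was not read in these mice. Capitals mark matches to CACGTG (an E-box), TGACGT (the core of a cyclic AMP response element), GGGCGG (a GC box) or CCAAT, searched on both strands.
Arf5 promoter: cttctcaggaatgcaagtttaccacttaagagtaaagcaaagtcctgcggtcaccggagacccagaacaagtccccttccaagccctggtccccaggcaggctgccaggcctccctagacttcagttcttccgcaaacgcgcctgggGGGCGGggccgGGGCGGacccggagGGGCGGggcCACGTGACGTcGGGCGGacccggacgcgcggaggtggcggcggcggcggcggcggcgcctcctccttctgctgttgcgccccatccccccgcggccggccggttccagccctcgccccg

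This window held 4 GC boxes, 1 E-box and 1 TGACGT match, the last 2 overlapping by their shared TG, and no CCAAT. Among 27025 mouse promoter windows of the same length, GGGCGG was found in 35.9%, CCAAT in 37.9%, CACGTG in 7.24% and TGACGT in 7.64%. Promoter windows were listed for 5 of the 6 members, not for Arf6. In the first window listed for each, Arf1 also held TGACGT (1 match), CACGTG was found in Arf5 alone of the 5, and every one held at least 2 GC boxes. These matches are letters in a window and not shown to be bound.

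The targeted locus was read as its label says. Trbc2 (chromosome 6, 41546730 to 41548352), which encodes a constant region of the receptor's beta chain, had 6.45 and 3.85 CPM in WT. Neither TCRb-/- library had a read of it (0 reads, an upper limit of 0.122 and 0.150 CPM in replicates 1 and 2). Library totals ran from 19988137 to 26210790 reads. The 14 listed septum markers were present in every library, from Zic2 at 4.54 to 9.41 CPM to Sst at 168 to 204 CPM, and summed to between 622 and 732 CPM. Markers of neighbouring tissue were present too: the striatum list (16 genes) summed to 5981 CPM in TCRb-/- replicate 1, 5341 in WT replicate 1, 3207 in WT replicate 2 and 1449 in TCRb-/- replicate 2. The choroid plexus list (16 genes, Prlr also on the septum list) summed to 2181, 1333, 4253 and 6994 CPM in the same order. TCRb-/- replicate 2 thus held the least striatal and the most choroid plexus RNA of the 4 pools, and experiment 2 differed from experiment 1 in the same directions.

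Arf5 was lower in each TCRb-/- pool than in each WT pool. It had 214 CPM (exact Clopper-Pearson 95% interval 208 to 220) in TCRb-/- replicate 1 and 227 CPM (221 to 234) in TCRb-/- replicate 2. The WT pools had 305 CPM (299 to 312) and 342 CPM (335 to 350). The genotype means were 221 ± 9.52 and 324 ± 26.1 CPM (SD, n = 2 each), and the genotypes did not overlap. These are the values that chose Arf5, so nothing is read from the gap or the lack of overlap. In experiment 1 the TCRb-/- level was 70.1% of WT, and in experiment 2 it was 66.5%. On the log2(CPM + 1) scale the differences were -0.51 and -0.59. These intervals and limits cover counting error only, since PCR copies could not be told from separate molecules.

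Among all 13912 genes tested, 52 had a lower genotype difference than Arf5, most of them weakly expressed. Among the 2389 genes that averaged 100 CPM or more, 8 had one. Of those 2389, Arf5 was the 1 gene lower in TCRb-/- by at least 0.51 in both experiments, and of the 9821 genes with at least 10 CPM there were 3. These ranks describe the values that chose Arf5.

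Its class II partner Arf4, which acts with Arf5 in traffic between the endoplasmic reticulum and the Golgi, had like levels in both genotypes. In TCRb-/- it had 410 CPM (replicate 1) and 418 CPM (replicate 2), between the WT values of 404 and 422 CPM. The TCRb-/- level was 101.6% of WT in experiment 1 and 98.97% in experiment 2. Because each library holds both genes, their ratio does not depend on library size. There were 52.2 and 54.5 Arf5 reads per 100 Arf4 reads in the TCRb-/- pools, against 75.6 and 81.1 in the WT pools.

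Arf1, the main class I ARF of the Golgi, had the closest match between genotypes. It had 641.2 CPM in TCRb-/- and 640.1 in WT in experiment 1, and 601 against 599.99 CPM in experiment 2. The TCRb-/- level was 100.2% of WT in each experiment. Arf5 reads per 100 Arf1 reads were 33.4 and 37.8 in TCRb-/- and 47.7 and 57.0 in WT.

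Arf3, a class I gene abundant in brain, varied most among the 6. It had 1968 CPM in TCRb-/- replicate 1, 1800 in WT replicate 1, 1397 in WT replicate 2 and 1169 in TCRb-/- replicate 2. The TCRb-/- level was thus above WT in experiment 1 (109.3%) and below it in experiment 2 (83.7%). The order of the 4 libraries by Arf3 was the order by the summed striatum list. The part of tissue composition in this was not tested.

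Arf2, a class I gene that the human genome lacks, had 123.1 and 122.7 CPM in TCRb-/- against 127 and 132 CPM in WT. The genotypes did not overlap, with TCRb-/- at 96.6% and 93.1% of WT. In experiment 1 the counting intervals overlapped, at 119 to 128 CPM in TCRb-/- and 123 to 132 CPM in WT. Arf6, the plasma membrane ARF, had 75.8 and 83.1 CPM in TCRb-/- against 67.1 and 80.2 CPM in WT, and its genotypes overlapped.

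Counted over the family, 2 of 6 members (Arf2 and Arf5) lay lower in TCRb-/- with no overlap and 0 lay higher. Of all 13912 genes tested, 8.04% lay lower in that way and 9.76% higher. Since the genotype contrast chose Arf5, nothing is read from this count. The median log2 difference of the 6 genes was -0.031, against 0.00069 over all genes tested. The plots of levels by library and of differences by experiment show Arf1 and Arf4 near 0, Arf2 slightly lower and Arf6 higher in both experiments (0.17 and 0.052), and Arf3 of mixed sign.

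**Figure D1:**
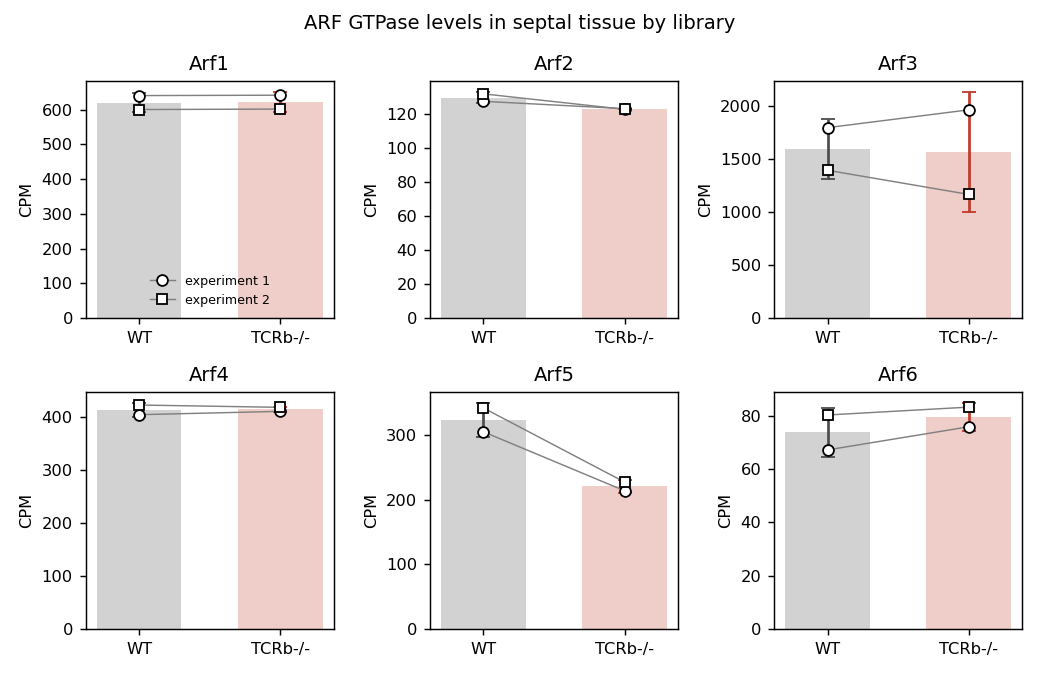
Levels of the 6 ARF genes in CPM (vertical axes, each from 0) in WT and TCRb-/- pools; bars are means, error bars SD (n = 2), and lines join the libraries of 1 experiment (circles, experiment 1; squares, experiment 2). Arf5 is at 305 and 342 CPM in WT and at 214 and 227 CPM in TCRb-/-, and the Arf1 lines of both experiments are nearly level.

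**Figure D2:**
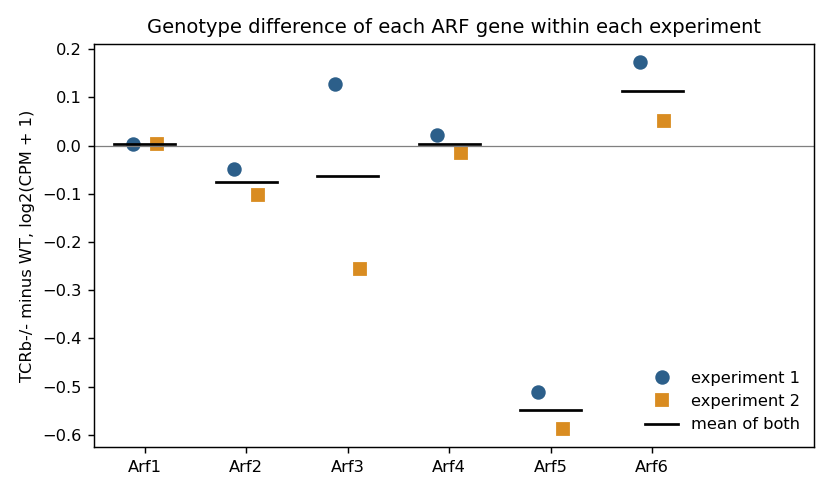
Difference between TCRb-/- and WT on the log2(CPM + 1) scale (vertical axis) for each ARF gene, within experiment 1 (circles) and experiment 2 (squares), with their mean (line). Arf5 lies at -0.51 and -0.59, and the other points lie between -0.26 and 0.17.

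Levels were compared between members per kilobase of the principal transcript. Arf3 and Arf1 were highest, at 347 ± 80.1 and 345 ± 12.8 CPM per kb (SD, n = 4 libraries), and did not differ beyond that spread. Arf5 followed at 244 ± 55.2 and Arf4 at 191 ± 3.73 CPM per kb, with ranges that met at 192 and 195 although Arf5 was the higher in each library. Arf2 (56.3 ± 1.90) and Arf6 (49.9 ± 4.56 CPM per kb) were lowest, and their ranges came close without overlapping, with the highest Arf6 library at 54.2 and the lowest Arf2 library at 54.7. Per kilobase, Arf5 stood above Arf4 by a wide margin in WT, at 274 and 307 against 186 and 195 CPM per kb. In TCRb-/- the class II genes were close, at 192 and 204 for Arf5 against 189 and 193 for Arf4. When all annotated exons were used as the length, Arf2 (42.1) fell below Arf6 (49.9 CPM per kb), and the other ranks were kept.

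As a share of all reads on the 6 genes, Arf5 made up 6.24% (exact 95% interval 6.07 to 6.402) and 8.68% (8.44 to 8.92) in TCRb-/- replicates 1 and 2. In WT it made up 9.13% (8.94 to 9.32) and 11.5% (11.3 to 11.8). The genotype means were 7.46 ± 1.73% and 10.3 ± 1.68% (SD, n = 2 each), a difference of -2.87 percentage points. It was -1.64 points without TCRb-/- replicate 1, -1.67 without WT replicate 2, -4.06 without WT replicate 1 and -4.09 without TCRb-/- replicate 2. The lowest WT share was above the highest TCRb-/- share. That gap holds the values that chose Arf5, and nothing is read from it. The share also moved with Arf3, which held between 44.6% and 57.3% of these reads and fell from experiment 1 to 2 in both genotypes. The 6 genes together took 3432 and 2621 CPM in TCRb-/- and 3344 and 2973 CPM in WT, so the total of the family followed the experiment and not the genotype.

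**Figure D3:**
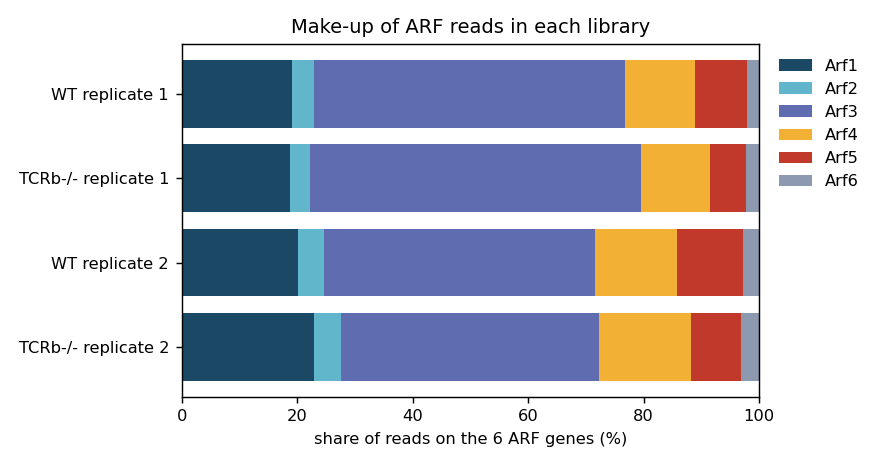
Share of the reads on the 6 ARF genes that falls on each gene (horizontal axis, percent), for the 4 libraries. Arf5 takes 9.13% and 11.5% in the WT libraries and 6.24% and 8.68% in the TCRb-/- libraries, and Arf3 takes the largest share in each.

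The comparison of experiment 2 with experiment 1 was not used to choose the members, and it puts both genotypes on each side. Over all genes, limma called 3292 of 13912 between experiments (23.7%), at a Benjamini-Hochberg adjusted p under 0.05. Without TCRb-/- replicate 1, TCRb-/- replicate 2 or WT replicate 1 it called 1406, 1823 and 1637. Of the 6 ARF genes it called 1, lower in experiment 2, where 14.7% of all genes were called lower and 8.95% higher. The experiments did not overlap for Arf1, Arf3, Arf4 and Arf6, 4 of 6, against 67.3% of all genes. Both counts lie near the background. Arf3 was lower in experiment 2, at 1283 ± 161 CPM against 1884 ± 119 CPM in experiment 1 (SD, n = 2 each). Its log2 difference was -0.56 (SE 0.10, limma adjusted p 0.0102), with -0.75 in TCRb-/- and -0.37 in WT, and with moderation without a trend the adjusted p was 0.0569. Arf3 has the longest transcript of the family (4566 bases). Of the striatum markers 15 of 16 fell too (median -1.39), and of the cortex and hippocampus markers 6 of 10 (median -0.77), and the part of either in the Arf3 difference was not tested.

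Arf6 was higher in experiment 2 in both genotypes, by 0.13 in TCRb-/- and 0.25 in WT, and did not pass the threshold (0.19, SE 0.081, limma adjusted p 0.119). Arf1 differed by -0.093 in each genotype and did not pass either (SE 0.062, limma adjusted p 0.301). Arf5, Arf2 and Arf4 had differences of 0.13, 0.022 and 0.045 (limma adjusted p 0.689, 0.839 and 0.620). For Arf5 the SE was 0.21, the largest of the 6, because that fit leaves the genotype gap in its residual spread. With genotype as a covariate, the limma adjusted p of Arf5 between experiments was 0.199.

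Marker lists were set beside Arf5 in the plot of markers by library. The choroid plexus list was higher in TCRb-/- in both experiments for 16 of 16 genes, with medians of 0.53 and 0.65. The striatum list went the other way in the experiments, at 0.17 and -1.16, and the thalamus list at -0.17 and 0.71. The Arf5 differences in experiments 1 and 2 were -0.51 and -0.59. The oligodendrocyte list summed to between 9171 and 10865 CPM, the astrocyte list to between 2483 and 2723, and the microglia list to between 194 and 208. Of the 11 T cell markers 5 were listed, summing to between 56.2 and 129 CPM, most of it Cd4 and Thy1, and Cd3e, Cd3d, Cd3g and Cd8a were not among the listed rows. Cd4 had the library order of the striatum list, from 85.0 CPM in TCRb-/- replicate 1 to 6.70 in TCRb-/- replicate 2. The sum is therefore not read as T cell content. Trac had 0.569 and 1.15 CPM in TCRb-/- against 0.992 and 1.61 in WT. Lck had 5.78 and 6.85 CPM against 7.21 and 7.56. Of the 5 listed, 3 (Trbc2, Trac and Lck) were lower in TCRb-/- in both experiments and 0 were higher in both. The part of any of these lists in the Arf5 difference was not tested.

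**Figure D4:**
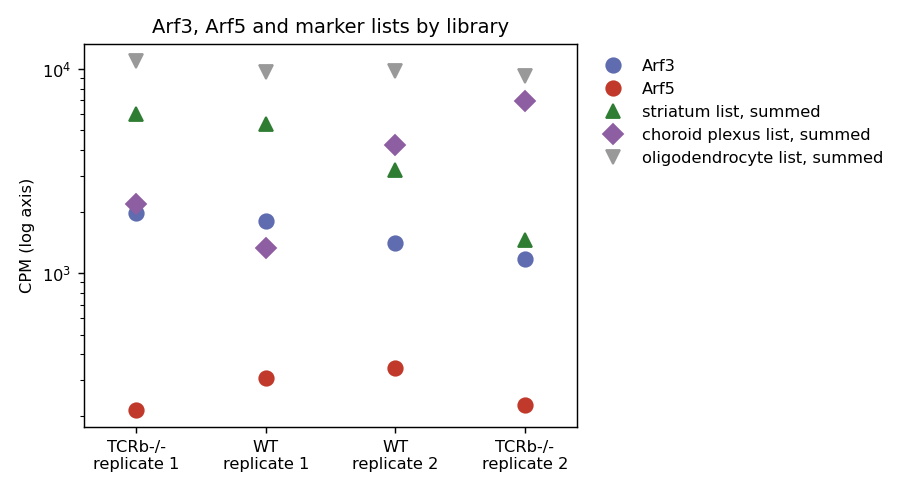
CPM (log axis) of Arf3, Arf5 and the summed striatum, choroid plexus and oligodendrocyte lists in the 4 libraries, placed in the order of Arf3. Arf3 and the striatum list fall together from 1968 and 5981 CPM to 1169 and 1449 CPM, while Arf5 is lowest in the 2 TCRb-/- libraries at 214 and 227 CPM.

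The other genes of the pathway were read from lists of exchange factors, GTPase-activating proteins, related GTPases, coats and effectors, 114 genes in all, of which 105 were tested. By genotype, limma called 0 of the 105 and 0 of all 13912 genes (0%) at the adjusted threshold, and without TCRb-/- replicate 1 it called 47 of all genes. At an unadjusted p under 0.05 there was 1 pathway gene of 105 (Asap2, lower in TCRb-/-), against 43 of all genes (0.309%, with 0.108% lower). With the experiment as a block, limma called 2 genes of 13912 (0.0144%) and 0 of the 105. At an unadjusted p under 0.05 with the block there were 4 of 105 (3.81%), against 5.64% of all genes. These were 2 lower (Psd3 and Asap2) and 2 higher (Copg2 and Kdelr1), where 2.48% of all genes were lower and 3.16% higher, so the pathway lay near the background. The median log2 difference was -0.010 over the pathway. None of the pathway genes named here passed the adjusted threshold by genotype.

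Of the exchange factors that load ARFs at the Golgi and on endosomes, 3 of 3 were tested. Arfgef1 had 50.8 and 45.1 CPM in TCRb-/- against 52.1 and 50.05 in WT. Arfgef2 had 25.6 and 21.9 against 21.8 and 20.1 CPM. Of the cytohesin, Iqsec and Psd exchange factors, which act mostly at the cell surface, 11 of 12 were tested. Psd3, an Arf6 exchange factor, had 63.8 and 52.6 CPM in TCRb-/- against 72.3 and 60.8 in WT, lower within each experiment (-0.18 and -0.20, limma adjusted p with the block 0.848). Cyth1 had 152 and 120 against 136 and 117 CPM.

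Of the GTPase-activating proteins 22 of 23 were tested. Asap2, which acts on several ARFs, had a difference close in size to that of Arf5: it had 5.82 and 5.35 CPM in TCRb-/- against 8.93 and 8.01 CPM in WT. Its log2 difference was -0.52, with -0.54 and -0.50 in experiments 1 and 2 (limma adjusted p with the block 0.848). It was a weakly expressed gene beside Arf5. Asap3 had 4.15 and 4.50 CPM against 2.71 and 4.03. Among the ARF-like and SAR GTPases (20 of 24 tested), Trim23, which carries an ARF domain and a ubiquitin ligase domain, had 56.7 and 62.7 CPM in TCRb-/- against 68.1 and 67.4 in WT. Arl3, a GTPase of cilia, had 139 and 149 against 128 and 140 CPM.

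All 9 listed genes of the COPI coat, which ARFs recruit to Golgi membranes, were tested. The gamma subunits are on chromosome 6, like Arf5. Copg1 had 393 and 426 CPM in TCRb-/- against 452 and 432 in WT, and Copg2 had 78.1 and 84.6 against 61.3 and 76.6. Copg1 was lower (-0.20 and -0.023) and Copg2 higher (0.34 and 0.14) in each experiment, with limma adjusted p of 0.890 and 0.848 with the block. Of the clathrin adaptors, 20 of 22 were tested. Ap3b2, the neuronal beta subunit of AP-3, had 95.6 and 109.9 CPM against 138 and 111 in WT, a difference that lay in experiment 1 (-0.52) and hardly in experiment 2 (-0.0084). Gga1 had 79.4 and 78.5 against 67.8 and 74.3 CPM. Of the lipid enzymes and other effectors, 20 of 21 were tested. Gcc2, a golgin of the trans-Golgi network, had 56.4 and 58.9 CPM against 61.4 and 64.8. Kdelr1, the receptor that returns proteins to the endoplasmic reticulum, had 30.8 and 33.2 against 22.4 and 29.9 CPM.

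Without overlap between genotypes, 12 of the 105 lay lower in TCRb-/- and 11 higher, or 21.9%, against 17.8% of all genes in either direction. The COPI coat had 4 of 9 and the clathrin adaptors 8 of 20, in mixed directions.

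Between experiments limma called 26 of the 105 (24.8%, against 23.7% of all genes), 20 of them lower in experiment 2. The effectors held 11 of these. Pip5k1c, which makes phosphatidylinositol bisphosphate at synapses, fell by 0.48 on the log2 scale and Rab11fip4, an endosomal effector, by 0.47 (limma adjusted p 0.00621 and 0.00635). Of the GTPase-activating proteins, 5 were called and all fell, Acap3 by 0.53 and Git1 by 0.41 (0.00501 and 0.00679). Psd and Cyth3 fell by 0.63 and 0.36 (0.0109 and 0.0206). Of 4 called ARF-like and SAR GTPases, Arl15 fell by 0.71 and Arl2 rose by 0.40 (0.00535 and 0.00669), and Cope was the 1 COPI subunit called, higher by 0.36 (0.00860). Ap4s1 rose by 0.26 and Ap3d1 fell by 0.37 (0.0262 and 0.0408), the least secure of these calls. Ap4s1 lost its call without any 1 library (limma adjusted p 0.0579 to 0.109), Ap3d1 without either WT library (0.165 and 0.0931), under median-of-ratios scaling (0.0544) and under quantile normalization (0.0508). Cyth3 lost its call without TCRb-/- replicate 1, TCRb-/- replicate 2 or WT replicate 1 (limma adjusted p 0.0764, 0.0719 and 0.0716), and Psd without TCRb-/- replicate 1 (0.0502). With moderation without a trend, Acap3 and Arl15 kept their calls among the genes named here, and the others had limma adjusted p between 0.0511 and 0.124. Copz2 (0.42), Arfgef1 (-0.11) and Arfgef2 (-0.16) did not pass the threshold (limma adjusted p 0.0878, 0.354 and 0.325). Without TCRb-/- replicate 1, TCRb-/- replicate 2 or WT replicate 1, the count was 12, 14 and 13.

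Arf5 lies 13.1 Mb from Trbc2 on chromosome 6, with 74 tested genes between their start sites. Of 13912 tested genes 13580 (97.6%) matched an annotated symbol, and 678 were on chromosome 6. The nearest neighbours were read first. Gcc1, the gene around Arf5, had 34.9 and 26.2 CPM in TCRb-/- against 36.0 and 23.3 CPM in WT, so the genotypes overlapped. Its log2 differences were -0.044 and 0.16 in experiments 1 and 2. Snd1, 51.6 kb downstream, which encodes a Tudor domain nuclease, had 62.2 and 70.7 against 65.9 and 72.5 CPM. Zfp800, a zinc finger gene 25.6 kb to the other side, had 21.1 and 21.2 against 22.3 and 22.1 CPM, lower without overlap by 0.066 on average.

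The other neighbours were Grm8 (0.25, higher without overlap), Lrrc4 (-0.10), Rbm28 (-0.32), Pot1a (0.044), Gpr37 (-0.0046), Gm3294 (0.20) and Gm42547 (0.067). Of the 10 neighbours, limma called 0 at the adjusted threshold, blocked or not, and 1 (Rbm28) had an unadjusted p under 0.05 with the block (0.0198). Rbm28, which encodes an RNA-binding protein, had 18.1 and 14.0 CPM in TCRb-/- against 23.5 and 17.2 in WT, so the genotypes overlapped. The difference of Arf5 was larger in size than that of each of these 10 genes. Since Arf5 was chosen by that difference, nothing is read from this.

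Wider windows leave out Arf5 and Trbc2 themselves. With the block, genes with an unadjusted limma p under 0.05 made up 7 of 44 within 5 Mb of Arf5 (15.9%), 11 of 78 within 10 Mb (14.1%) and 12 of 137 within 20 Mb (8.76%). Over all genes the share was 5.64%, and on the rest of chromosome 6, more than 20 Mb from both genes, it was 5.11% of 470. Around Trbc2 it was 1 of 36 within 5 Mb, 7 of 92 within 10 Mb and 19 of 183 within 20 Mb. The genes within 20 Mb of Arf5 went both ways, 6 lower and 6 higher in TCRb-/-, and none passed the adjusted threshold in limma with the block. Without the block 1 of the 137 had an unadjusted p under 0.05. The median difference was -0.027 within 20 Mb of Arf5 and 0.0015 on other chromosomes. The targeted locus and the DNA linked to it cannot be told apart in this design.

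The genes in these windows that follow were picked after their values were seen. Slc13a4, a sulfate transporter 6.88 Mb from Arf5, had 12.3 and 24.5 CPM in TCRb-/- against 6.75 and 12.3 in WT (0.86, limma adjusted p with the block 0.197). Smo, the transducer of hedgehog signals 1.31 Mb away, had 14.1 and 14.6 against 10.4 and 10.6 CPM (0.42, adjusted p 0.848). Both belong to the 6 higher genes counted above within 20 Mb of Arf5, where 6 others were lower, like Arf5. The order of the 4 libraries by Slc13a4 was the order by the summed choroid plexus list. The part of tissue composition in the window counts was not tested. The plot of differences around Arf5 shows no other gene within 20 Mb, Trbc2 apart, as low as Arf5, the lowest of the 137 being at -0.42. This describes the value that chose Arf5.

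**Figure D5:**
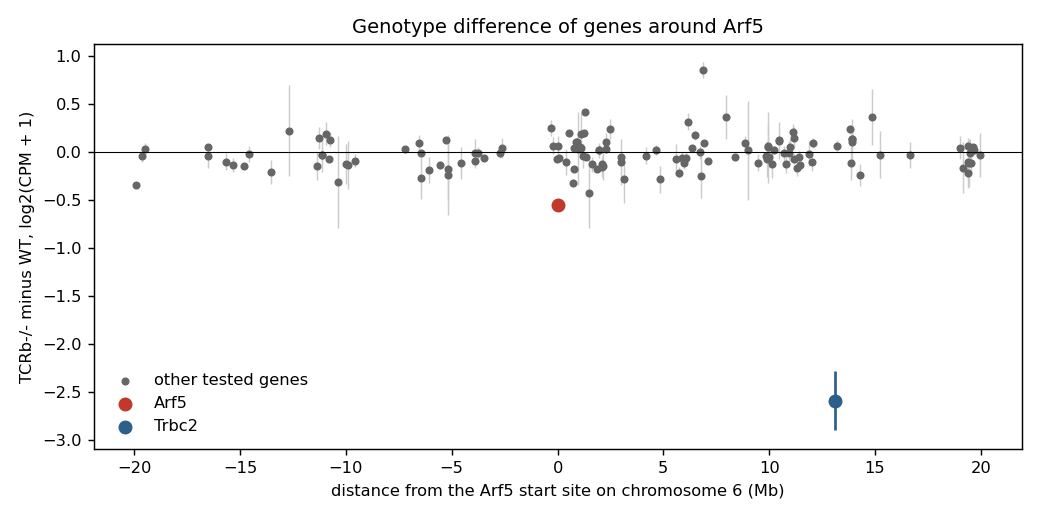
Difference between TCRb-/- and WT on the log2(CPM + 1) scale (vertical axis) against distance from the Arf5 start site in Mb (horizontal axis) for tested genes within 20 Mb; points are means over the experiments, and vertical lines join the values of experiments 1 and 2. Arf5 is at -0.55, Trbc2 at -2.59, and the other 137 genes lie between -0.42 and 0.86.

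The genes most like Arf5 in pattern were found by the Euclidean distance between log2(CPM + 1) profiles, each centred on its mean, over the 4 libraries and 13911 other tested genes. This is a description over 4 libraries. The nearest were Zc3h6 (distance 0.0877), Ide (0.110), Pbld2 (0.117), Taf1d (0.151) and Myo1h (0.151). None is on chromosome 6. All 5 were lower in both TCRb-/- libraries than in both WT libraries, which a choice by nearness to the Arf5 profile favours. Ide, the insulin-degrading enzyme, had 19.8 and 22.9 CPM in TCRb-/- against 31.3 and 32.5 in WT, and Zc3h6, a zinc finger gene, 5.98 and 6.30 against 9.31 and 9.62 CPM. The other 3 had means from 1.11 to 7.49 CPM, against 272 CPM for Arf5. The choice rests on the pseudocount and the filter: with genes of at least 10 CPM, 1 of these 5 (Ide) was again among the nearest 5. No ARF gene was close, Arf2 coming nearest at a distance of 0.485 and rank 1296, and Arf3 farthest at 0.853 and rank 11779.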

How the data were processed

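Septal RNA was sequenced in 4 libraries from pools of 4 to 5 mice, prepared with a SMARTer low-input kit, per the labels' protocols. HISAT2 2.1.0, SAMtools 1.3, HTSeq 0.9.1, R 4.0.5, limma 3.46.0 and the build mm10 are named in the submitters' processing notes. Annotation, strand setting and row filter are not stated there. Each file paired gene symbols with 1 value, and the deposited values were log2 CPM with 0.5 added to the reads and 1 to the library total, which gave whole reads for 100% of values within 0.001 reads. The 17 ERCC spike-in rows were left out.

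Reads were expressed as log2(CPM + 1), which understates changes of low genes. The tests of genotype and experiment used limma 3.58.1 (R 4.3.3) on 13912 genes (mean at least 1 CPM, trended moderation, two-sided, Benjamini-Hochberg, threshold 0.05), after a check on simulated data. The simulated reads had a fixed spread and, in the genotype runs, no difference between experiments. How the tests behave at the spread of these data is therefore not shown by that check. Python 3.11.15 and Biopython 1.88 served the other steps. In the labels a replicate number stands for an experiment, so same-numbered libraries were taken as pairs. Deviations from the genotype mean correlated at 0.72 across genes between same-numbered libraries. Replicates of a genotype differed beyond sampling noise (chi-square per degree of freedom 57.4 and 33.3). Library totals of 19988137 to 26210790 reads make 1 read worth 0.0382 to 0.0500 CPM, and a count of 0 allows 3 reads.

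The members and gene lists were chosen with earlier results of these data known. Named were the members, Trbc2, the 5 nearest tested genes on each side of Arf5, the 5 most like it, and per pathway list the gene with the smallest p in each direction by genotype with the block and the 2 with the smallest p by experiment. The alternatives tried were quantile normalization, median-of-ratios scaling, a filter at 10 CPM or none, pseudocounts of 0.1 and 5, moderation without a trend, the block or covariate, and leaving out each library. Count models were not run, since the deposited unit is a log scale.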

Additional observations from a re-analysis of the deposited data

Results flagged for a closer look

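Some genes had genotype differences of opposite sign in experiments 1 and 2, with 1 library per genotype in each, so that the change between experiments was not tested. Values are the difference between TCRb-/- and WT in experiment 2 minus that in experiment 1, on the log2(CPM + 1) scale. Among the ARF genes they were -0.39 for Arf3 (0.13 and -0.26) and -0.037 for Arf4 (0.022 and -0.015). Among the neighbours of Arf5 they were 0.21 for Gcc1, 0.17 for Gm42547, 0.21 for Pot1a, -0.11 for Gpr37 and -0.27 for Lrrc4. A difference near 0 takes either sign easily, as those of Arf4 and Gpr37 show.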

How the results depend on the processing

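The alternatives that used all libraries gave 447 values, of which 420 counted as unchanged: a tested value by direction and call, an untested one by moving less than the SD between replicates, and a count by staying within 1.5 times its main value. The genotype difference of Arf5 ran from -0.55 to -0.53 over pseudocounts, scalings and the replicate block. With the replicate block the counts by genotype were 2 for all genes, 4 for pathway genes at an unadjusted p and 12 for genes within 20 Mb of Arf5 at an unadjusted p, and the block changed no call of a named gene other than Trbc2. Without the block, the unadjusted count was 1 for pathway genes and 1 near Arf5. With a filter at 10 CPM and no block, both were 0. The unblocked count near Arf5 was also 0 without a filter and 0 under quantile normalization. The counts with the block were not rerun under these settings. Moderation without a trend gave 629 genes between experiments, 3 of them in the pathway and 0 of the ARF genes. Of the 5 genes most like Arf5, 3 stayed among the nearest 5 with a pseudocount of 0.1, 2 with a pseudocount of 5, 3 under quantile normalization and 1 with the filter at 10 CPM. Gpr37 changed sign under quantile normalization (0.0068), and under median-of-ratios scaling Arf1 (0.0027 to -0.0022) and Arf4 (0.0037 to -0.0012) changed sign by genotype within the SD between replicates. The cause was not tested.

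Leaving out 1 library leaves a lone sample, assumed to vary like the other group, and unbalances the experiments. It gave 236 values, of which 195 counted as unchanged. Counts by genotype then ran from 0 to 47 for all genes, from 0 to 3 for pathway genes and from 0 to 9 near Arf5 at an unadjusted p, the highest each time without TCRb-/- replicate 1. Between experiments they ran from 1406 to 3390 for all genes and from 12 to 25 for the pathway. The genotype difference of Arf5 ran from -0.63 to -0.47. Its sign could not change, because both TCRb-/- pools lay below both WT pools. Genes that changed sign ranged as follows: between experiments Arf2 from -0.029 to 0.073 and Arf5 from -0.17 to 0.42, and by genotype Arf1 from -0.044 to 0.049, Arf3 from -0.44 to 0.31, Arf4 from -0.028 to 0.035, Arf6 from -0.015 to 0.24, Cyth1 from -0.076 to 0.27, Gm42547 from -0.047 to 0.18, Pot1a from -0.020 to 0.11, Gpr37 from -0.18 to 0.17, Gcc1 from -0.25 to 0.36, Snd1 from -0.15 to 0.032 and Lrrc4 from -0.44 to 0.23. Depth limits the lowest genes named.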
